A study of Rattus norvegicus with 20 samples.

Results

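The genes described here encode 10 neuropeptide precursors that were chosen by name as peptides made beside vasopressin or oxytocin in magnocellular neurons (MCNs). They are Pdyn, Gal, Cck, Crh, Trh, Cartpt, Penk, Adcyap1, Tac1 and Tac3, and all 10 were found among the 32402 genes of the tables. RNA was measured as poly(A) RNA-seq of punches of the supraoptic nucleus (SON) of male Wistar Han rats, 5 rats in each of 4 groups. Adult rats were 3 months old and aged rats 18 months old. Euhydrated (EH) rats drank freely and dehydrated (DH) rats were deprived of water, for 2 days by the sample labels and for longer by the study's methods. No allele or drug distinguishes the groups, only males were studied, and a punch also takes in tissue around the nucleus.

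MCNs of the SON make vasopressin (gene Avp) or oxytocin (gene Oxt) and release them into the blood from the posterior pituitary when plasma osmolality rises. The same neurons pack smaller amounts of other peptides into their dense-core vesicles, and these act on the neurons themselves, on their neighbours or in the pituitary. Dynorphin and galanin are best known from vasopressin neurons, whereas cholecystokinin and corticotropin-releasing hormone are best known from oxytocin neurons. Pdyn, Gal, Cck, Crh and the others are also transcribed in neurons of the cortex, amygdala or other hypothalamic nuclei, and bulk RNA does not tell these sources apart. In such samples fewer cells of a type and less RNA per cell cannot be told apart either.

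The libraries held from 24268398 to 30348118 reads on genes. Values are the authors' normalized counts, in which the reads of a gene are divided by a size factor of the library. They are not divided by gene length, so levels of different genes are not comparable. A sum over genes is weighted to those with the highest counts. The markers of MCNs were present throughout, and the sums given here for the 4 groups are as scaled in the DH comparison of each age. All 9 were tested, none was at 0, and their summed level ran from 218632 to 307158 normalized counts in adult EH, from 298831 to 397783 in adult DH, from 272870 to 380346 in the aged EH rats, and from 318755 to 514397 in those with DH. Markers of cortical and amygdalar glutamatergic neurons, which lie next to the SON, were present as well. The 11 genes of that list summed to between 11273 and 19352 normalized counts in adult EH, 8836 and 15139 in adult DH, 12941 and 20517 in the aged EH rats, and 8175 and 11880 in aged DH, with none at 0. The aged EH and aged DH rats did not overlap in that sum. Over all 20 rats the member with the fewest reads was Crh, at 57 to 319 per rat, and the one with the most was Pdyn, at 10531 to 49371.

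Pdyn, the precursor of dynorphin, an opioid peptide that restrains MCN firing, was higher in aged EH than in adult EH rats and higher again after DH at both ages. Crh, the precursor of corticotropin-releasing hormone, rose with DH at both ages and showed no change called with age. Cartpt, which encodes the CART peptides, was higher with age and not called in either response to DH. Tac3, Adcyap1 and Cck fell with DH in aged rats, and none of the 3 was called in adult DH. The aged response less the adult response was not called for any of them (limma adjusted p = 0.258, 0.352 and 0.683). The aged DH calls of Cck and Pdyn were lost when certain single rats were left out. In the same aged DH libraries 7 of the 11 cortical and amygdalar glutamatergic markers also fell. The mean of that list was then added as a covariate, a fit chosen after seeing the data. The log2 fold change (LFC) of Tac3 was -0.21 there rather than -1.49, and that of Adcyap1 -0.27 rather than -0.47. Those of Cck, Pdyn and Crh were -0.42, 0.54 and 1.24 rather than -0.48, 0.58 and 0.99. No member was called in that fit. Only 18 of all genes were, against 1119 without the covariate. The list itself differed between the groups, and the reason for the lost calls was not tested. Gal, Trh, Penk and Tac1 were not called in any comparison.

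**Figure D1:**
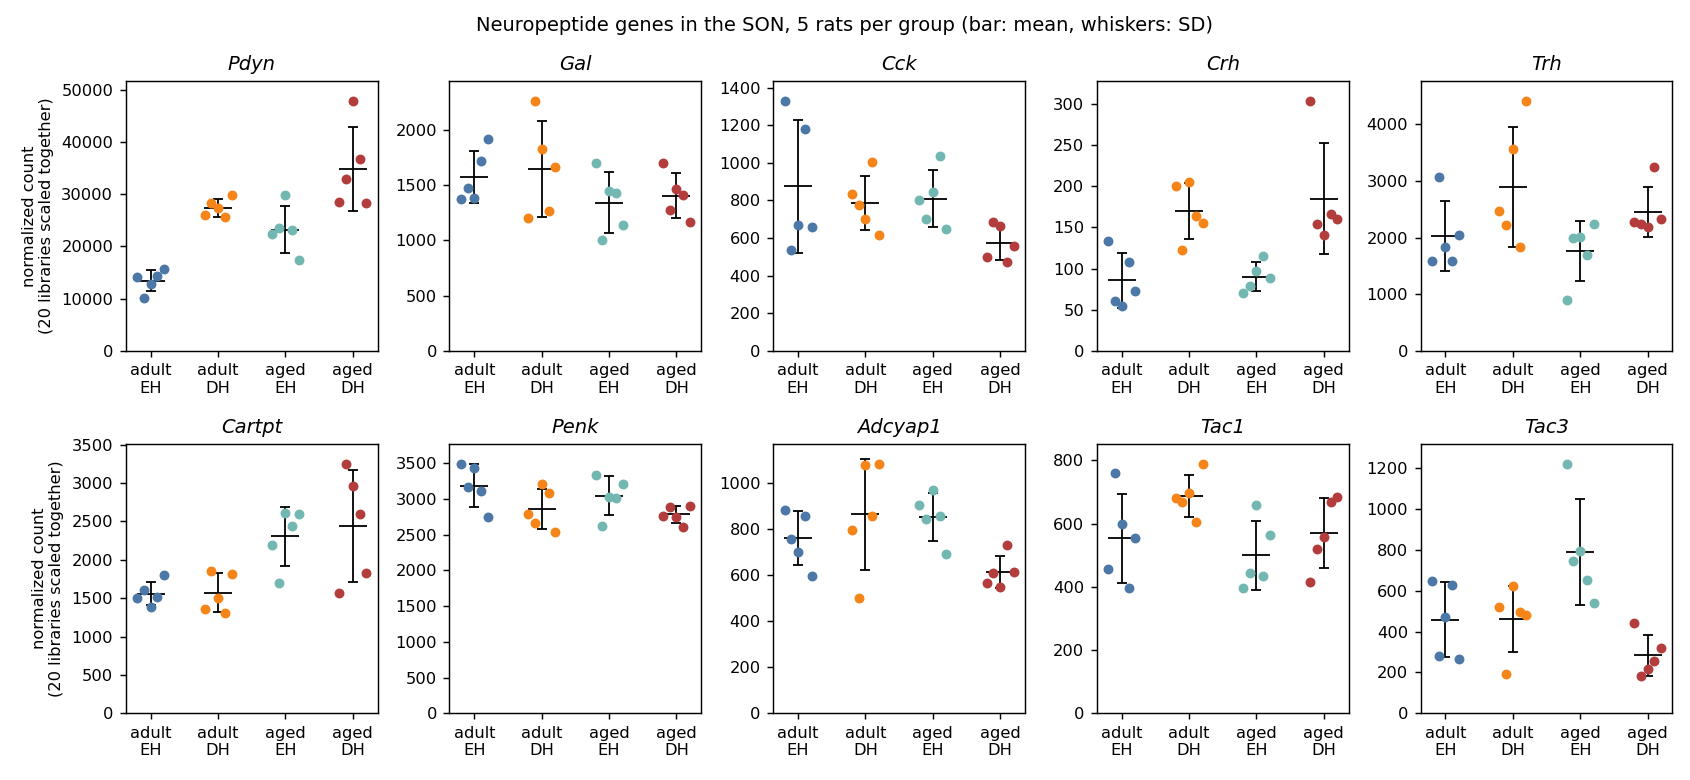
Normalized counts of the 10 members (vertical axes, from 0, with all 20 libraries scaled together) in the 4 groups (horizontal axes); each point is a rat, the bar is the mean and whiskers are the SD. Pdyn ran from 10196 to 15593 in the adult EH rats and from 17325 to 29853 in the aged ones, while Tac3 ran from 183 to 441 in aged DH.

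The first comparison asked how expression differed between aged EH and adult EH rats. Differential expression was tested with limma on log2 of the normalized count plus 1, and p was adjusted by the Benjamini-Hochberg method over the 15369 genes tested, and the LFC is on that scale. A gene was called at an adjusted p under 0.05. Of the 10 members 2 were called, both higher in aged EH, where 2.69% of all genes tested were called higher, 3.3% lower and 5.99% in either direction. An unadjusted p under 0.05 was reached by 3 of the 10, against 20.3% of all genes. The median LFC of the members was 0.04, against 3.3e-04 for all genes.

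Pdyn (ENSRNOG00000026036) stood at 22816, 23931, 30541, 23680 and 17739 normalized counts in aged EH replicates 1, 2, 4, 5 and 6. In adult EH replicates 1, 2, 4, 5 and 6 it stood at 14565, 10437, 13140, 14616 and 15954. Every aged rat lay above every adult rat, as the groups did without overlap in 6.38% of all genes tested. The means were 23742 ± 4559 and 13742 ± 2099 (SD, n = 5), and the LFC was 0.78 (SE 0.13; limma adjusted p = 0.00308). Without any single rat the LFC ran from 0.69 to 0.88.

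Cartpt (ENSRNOG00000017712) stood at 2239, 1731, 2677, 2488 and 2661 normalized counts in the aged EH rats, in the same order. The adult EH rats had 1532, 1639, 1420, 1554 and 1842. A single aged rat, replicate 2, lay within the adult range, and the other aged rats lay above it. The means were 2359 ± 393 and 1597 ± 157 (SD, n = 5), with an LFC of 0.55 (SE 0.10; limma adjusted p = 0.00833).

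Pdyn and Cartpt are the members called with age, so the 250 bases before their annotated start are shown. They are from RefSeq on the assembly GRCr8, 5′ to 3′ on the strand of the gene. The windows are chr3:137366504-137366753 on the minus strand for Pdyn and chr2:32991236-32991485 on the minus strand for Cartpt. The counts were made on another assembly, Rn6. Capitals mark the motif that was found in each.
Pdyn: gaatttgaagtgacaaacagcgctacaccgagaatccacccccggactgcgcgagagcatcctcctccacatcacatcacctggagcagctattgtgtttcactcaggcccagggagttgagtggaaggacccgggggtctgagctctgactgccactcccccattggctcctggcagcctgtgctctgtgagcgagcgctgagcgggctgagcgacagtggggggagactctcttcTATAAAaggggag
Cartpt: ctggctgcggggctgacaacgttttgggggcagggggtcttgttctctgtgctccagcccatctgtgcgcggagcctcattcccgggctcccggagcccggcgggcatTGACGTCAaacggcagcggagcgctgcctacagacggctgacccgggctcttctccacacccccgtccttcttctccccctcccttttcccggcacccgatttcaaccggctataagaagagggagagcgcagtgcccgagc
Both strands were searched for the cAMP response element (CRE, TGACGTCA), its core TGACG, which lies within the CRE, the AP-1 element TGANTCA and the TATA motif TATAAA. Counted back from -1 at the last base before the start, Cartpt held the CRE from position -142, and 1.59% of 33469 promoter windows hold it. Pdyn held none of the CRE, its core or the AP-1 letters in this window, and it held TATAAA from position -13, as did 12.9% of windows on either strand. Of the 6 members matched in the promoter table (Pdyn, Gal, Trh, Cartpt, Adcyap1 and Tac1), 4 held the core TGACG, which 18.2% of windows hold, and none held TGANTCA, which 6.34% hold. These matches describe letters and not binding.

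Tac3 (ENSRNOG00000004229), the precursor of neurokinin B, had 1246, 761, 812, 666 and 553 normalized counts in the aged rats and 660, 288, 484, 642 and 271 in adult EH, in the order above. Its ranges overlapped between 553 and 660. The LFC of 0.83 (SE 0.26) did not pass the test over all genes (limma adjusted p = 0.0803). It was called without adult EH replicate 1 (limma adjusted p = 0.0495). The other members had LFCs between -0.24 (Gal) and 0.17 (Adcyap1), with limma adjusted p from 0.317 upward. Gal (ENSRNOG00000015156), the galanin precursor, had a mean of 1373 ± 281 in the aged and 1613 ± 244 in the adult EH rats (SD, n = 5), with overlapping ranges.

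Other cell types moved with age in the same libraries. In aged EH, 5 of 7 oligodendrocyte markers were called lower (median LFC -0.36) and 3 of 6 microglial markers higher (median 0.32), while 0 of 11 cortical and amygdalar and 0 of 9 MCN markers were called. Also called lower were 2 of 7 astrocyte markers (Aqp4, -0.26, and Gja1, -0.28), 1 of 4 endothelial markers (Cdh5, -0.35) and 1 of 6 suprachiasmatic markers (Rgs16, -0.31), and 0 of 12 striatal and 0 of 9 cortical interneuron markers were called. In the table of this comparison the summed oligodendrocyte level ran from 269752 to 393337 normalized counts in the adult rats and from 238822 to 290087 in the aged ones, and the summed microglial level from 4891 to 5528 and from 5781 to 6890. Their part in the changes of Pdyn and Cartpt was not tested.

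The second comparison asked how adult rats responded to DH. The adult EH rats are those of the comparison of ages, so both comparisons share them. Limma called 12.7% of 15280 genes, 7.67% higher and 4.99% lower. Of the members 2 were called, Pdyn and Crh, both higher in DH, and 5 had an unadjusted p under 0.05, as did 26.9% of all genes. The median LFC was 0.09 over the members and -0.0073 over all genes.

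Pdyn stood at 25484, 27800, 26843, 25112 and 29418 normalized counts in adult DH replicates 1 to 5. In the adult EH rats of this table it had 13977, 10028, 12584, 14021 and 15305. The lowest DH rat lay well above the highest EH rat, and groups without overlap were found in 10.9% of all genes. The LFC was 1.04 (SE 0.09; limma adjusted p = 6.33e-06), and it ran from 0.95 to 1.10 with each rat left out.

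Crh (ENSRNOG00000012703) had 197, 120, 201, 161 and 153 normalized counts in adult DH and 131, 59.99, 52.9, 105 and 71.4 in adult EH replicates 1, 2, 4, 5 and 6. Of the DH rats, replicate 2 lay below EH replicate 1, and the other 4 lay above every EH rat. Its LFC was 1.04 (SE 0.23; limma adjusted p = 0.00936). The peptide is the hypothalamic driver of pituitary corticotropin, and in the SON it is found in oxytocin neurons.

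Trh (ENSRNOG00000011824), the precursor of thyrotropin-releasing hormone, ran from 1798 to 4342 normalized counts in adult DH (median 2426) and from 1547 to 3018 in adult EH (median 1796). Its LFC of 0.49 (SE 0.23) did not pass the test (limma adjusted p = 0.180). Tac1 (ENSRNOG00000007374), the precursor of substance P and neurokinin A, had 675 ± 66.4 in DH and 543 ± 139 in EH (SD, n = 5), with an LFC of 0.34 (SE 0.14; limma adjusted p = 0.128). It was called without adult EH replicate 2, which at 748 was the highest EH rat (limma adjusted p = 0.0190). Penk (ENSRNOG00000008943), the enkephalin precursor, had an LFC of -0.16 (SE 0.07; limma adjusted p = 0.177). The LFCs of Gal, Cck, Cartpt, Adcyap1 and Tac3 lay between -0.08 and 0.15, and their ranges overlapped.

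The third comparison asked the same of aged rats. Here limma called 7.29% of 15346 genes, 4.05% higher and 3.25% lower. Of the members 5 were called, Pdyn and Crh higher and Tac3, Adcyap1 and Cck lower in DH, and 7 had an unadjusted p under 0.05, against 21.4% of all genes. The median LFC was 0.06 over the members and -0.0030 over all genes. With each rat left out in turn, between 3 and 6 members were called. The count was 3 without aged EH replicate 1, aged EH replicate 5 or aged DH replicate 5.

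Pdyn stood at 29110, 33437, 48856, 37417 and 28986 normalized counts in aged DH replicates 1, 2, 3, 5 and 6. The aged EH rats had 22782, 23897, 30532, 23659 and 17626, in replicates 1, 2, 4, 5 and 6. The ranges overlapped, because the EH rat with the most Pdyn, replicate 4, lay above DH replicates 1 and 6. The LFC was 0.58 (SE 0.14; limma adjusted p = 0.0262). The call was lost without aged EH replicate 1, 5 or 6 or aged DH replicate 5 (limma adjusted p from 0.0535 to 0.0682), and the LFC then ran from 0.48 to 0.58.

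Crh had 310, 157, 143, 170 and 163 normalized counts in aged DH and 71.7, 80.0, 99.1, 118 and 89.8 in aged EH. Every DH rat lay above every EH rat, as in 7.05% of all genes in either direction, and replicate 1 stood far above the other DH rats. The LFC was 0.99 (SE 0.19; limma adjusted p = 0.00637). Without that rat it was 0.80, and over every rat left out the adjusted p stayed at or below 0.0179.

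Tac3 fell the most of the members. It had 449, 186, 220, 260 and 328 normalized counts in aged DH, below the lowest aged EH rat in every case. The EH rats had 1244, 760, 812, 665 and 550. The LFC was -1.49 (SE 0.23; limma adjusted p = 0.00177), and it ran from -1.67 to -1.32 with each rat left out.

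Adcyap1 (ENSRNOG00000049882) encodes PACAP, a peptide that raises cyclic AMP in its target cells. It had 579, 621, 561, 745 and 626 normalized counts in aged DH and 923, 862, 994, 875 and 704 in aged EH. A single DH rat, replicate 5, lay above the lowest EH rat. The LFC was -0.47 (SE 0.09; limma adjusted p = 0.00615).

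Cck (ENSRNOG00000019321), the cholecystokinin precursor, had 511, 696, 679, 482 and 570 normalized counts in aged DH and 820, 717, 867, 1059 and 658 in aged EH. DH replicates 2 and 3 lay above the lowest EH rat. The LFC was -0.48 (SE 0.13; limma adjusted p = 0.0327). It was not called without aged EH replicate 1, 4 or 5 or aged DH replicate 1, 5 or 6 (limma adjusted p from 0.0519 to 0.0895).

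Among the members not called, Trh had the largest LFC, 0.53 (SE 0.20; limma adjusted p = 0.128). It ran from 2233 to 3307 normalized counts in DH and from 910 to 2269 in EH. Penk, with the smallest spread of the members, had 2835 ± 124 in DH and 3100 ± 277 in EH (SD, n = 5) and an LFC of -0.13 (limma adjusted p = 0.217). It was called without aged EH replicate 2, its lowest EH rat (limma adjusted p = 0.0315). Gal, Cartpt and Tac1 had LFCs of 0.08, 0.04 and 0.19, with overlapping ranges.

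**Figure D2:**
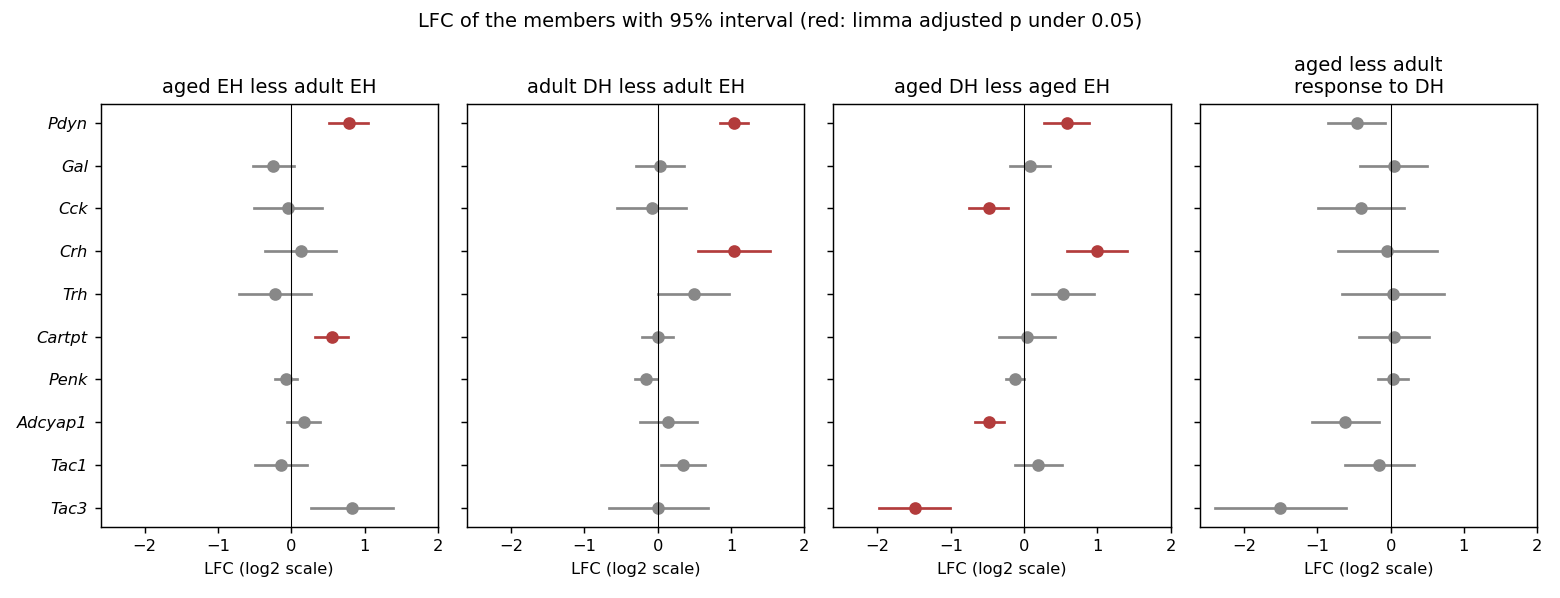
LFC on the log2 scale (horizontal axes) of each member (rows) in the 3 comparisons and in the difference between the ages, with 95% intervals from limma as lines and red where the adjusted p was under 0.05. Pdyn is red in each of the 3 comparisons and Tac3 has the lowest LFC of aged DH, -1.49.

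Whether aged and adult rats differed in their response was tested over all 20 rats as the aged response less the adult response. By limma 0 of 15326 genes were called (0% in either direction), edgeR called 0 and DESeq2 55, and 1522 (9.93%) had an unadjusted p under 0.05. None of the 10 members was called by any of these tools, and 3 had an unadjusted p under 0.05. For Tac3 the difference was -1.50 (95% interval -2.40 to -0.61; limma adjusted p = 0.258). For Adcyap1 it was -0.62 (-1.08 to -0.16; limma adjusted p = 0.352) and for Pdyn -0.46 (-0.86 to -0.07; limma adjusted p = 0.432). The falls of Tac3, Adcyap1 and Cck in aged DH are therefore not shown to differ from the adult values. For Crh the difference was -0.04, with an interval from -0.71 to 0.63, which leaves room for a larger or a smaller response in aged rats.

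With all 20 libraries scaled together, Pdyn had means of 13424 ± 2055 in adult EH, 23237 ± 4460 in aged EH, 27419 ± 1769 in adult DH and 34879 ± 8055 in aged DH (SD, n = 5). In that order the aged EH and adult DH rats overlapped (17325 to 29853 and 25581 to 29888), and so did the adult DH and aged DH rats (28368 to 47905). This scaling was chosen after seeing the data. Cartpt had 1561 ± 155 and 1570 ± 256 in adult EH and DH, and 2308 ± 382 and 2443 ± 725 in aged EH and DH (SD, n = 5).

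Because Pdyn and Gal are known from vasopressin neurons and Cck and Crh from oxytocin neurons, their reads were also set against those of the hormone gene in the same rat, a measure added after seeing the data. Exact permutation tests of the log2 ratio were two-sided and adjusted over 12 tests, and 5 rats against 5 cannot go below p = 0.00794. Pdyn had 8.14 ± 0.828 reads per 100 Avp reads in adult EH, 12.0 ± 1.20 in adult DH, 11.6 ± 1.82 in the aged EH rats and 14.9 ± 1.17 in those with DH (SD, n = 5). The log2 ratio was higher by 0.51 with age, by 0.56 in adult DH and by 0.37 in aged DH, each with an adjusted p of 0.0476 in the exact test. Avp itself rose in adult DH (LFC 0.48; limma adjusted p = 0.0221), so Pdyn rose by more than Avp there.

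Gal had 0.976 ± 0.232 reads per 100 Avp reads in the adult EH rats and 0.669 ± 0.0895 in the aged ones (SD, n = 5; exact permutation test, adjusted p = 0.0544). Its other ratios did not pass the test. Crh had 0.106 ± 0.0406 reads per 100 Oxt reads in adult EH and 0.186 ± 0.0392 in adult DH (SD, n = 5; exact permutation test, adjusted p = 0.0476). In aged rats it had 0.0928 ± 0.0196 in EH and 0.181 ± 0.0896 in DH (SD, n = 5; exact permutation test, adjusted p = 0.0476). Cck fell from 0.838 ± 0.193 to 0.539 ± 0.102 reads per 100 Oxt reads with DH in aged rats (SD, n = 5; exact permutation test, adjusted p = 0.0476).

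**Figure D3:**
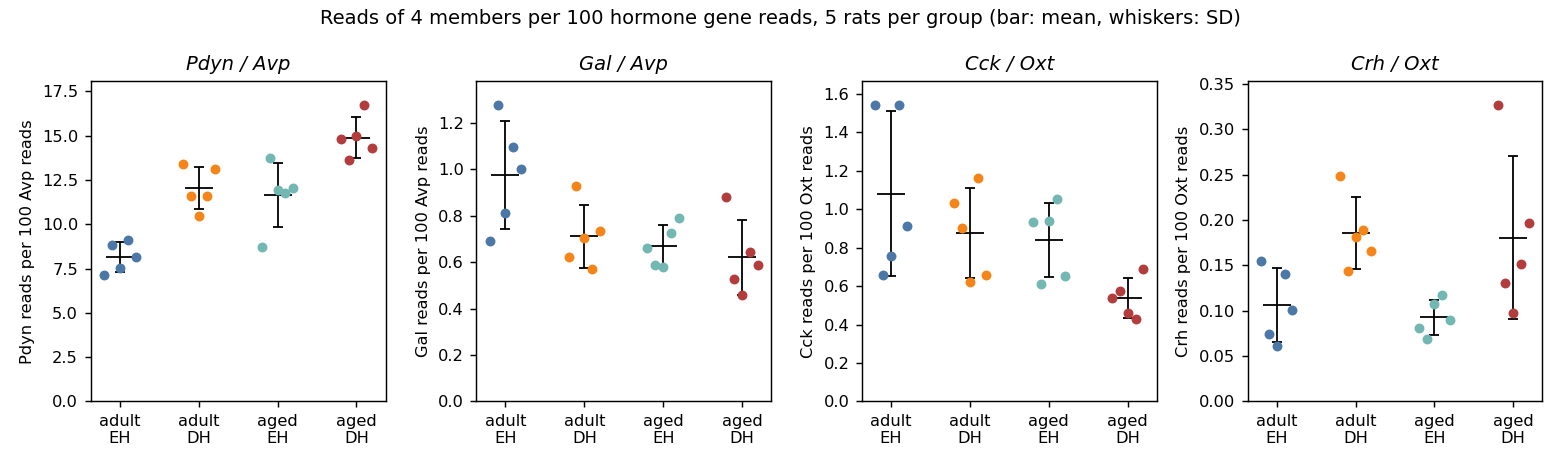
Reads of Pdyn and Gal per 100 Avp reads and of Cck and Crh per 100 Oxt reads (vertical axes, from 0) in the 4 groups; points are rats, the bar is the mean and whiskers are the SD. The ratio of Pdyn to Avp ran from 7.15 to 9.10 in adult EH and from 10.5 to 13.4 in adult DH.

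The markers of cortical and amygdalar glutamatergic neurons fell in the comparison in which Tac3, Adcyap1 and Cck fell. In aged DH, 7 of the 11 were called lower, with a median LFC of -0.67, against 0 in ageing (median 0.08) and 1 lower and 1 higher in adult DH (median -0.13). Slc17a7, the vesicular glutamate transporter of cortical neurons, had 1064, 324, 351, 389 and 614 normalized counts in the aged DH rats and 3261, 2035, 1916, 1609 and 1109 in the aged EH rats. Its groups did not overlap (LFC -1.92; limma adjusted p = 0.00224), and neither did those of Neurod6, a transcription factor of cortical neurons (LFC -2.49; limma adjusted p = 0.00131). The adult rats varied just as widely, from 304 to 2391 in EH and from 432 to 1690 in DH.

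Markers of other cells moved in aged DH as well. Of 7 oligodendrocyte markers all had an LFC above 0 and 2 were called higher (Mobp, 0.35, and Mal, 0.25), and the summed level ran from 238602 to 289649 normalized counts in the EH rats and from 262849 to 312014 in those with DH. The MCN marker Sim1 was called lower (-0.30) and Nos1 higher (0.78), of 9 tested. In the striatal and amygdalar list 1 of 12 was lower (Bcl11b, -0.56), in the cortical interneuron list 1 of 9 was higher (Pvalb, 0.37), and in the suprachiasmatic list 1 of 7 was higher (Prok2, 1.76). None of the astrocyte, microglial or endothelial markers was called. The part of these cells in the changes of the members was not tested.

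Across the 20 rats, each taken as its deviation from its group's mean, Tac3 followed the mean of the list closely. Pearson's r was 0.93 (permutation within groups, adjusted p = 2.0e-04) and Spearman's rho 0.95 (permutation, adjusted p = 1.0e-04), where values were adjusted over the 10 members, and r was 0.90 without the 2 rats farthest from the median of the list. For Adcyap1 r was 0.67 (permutation, adjusted p = 0.0486), but rho was 0.38 (permutation, adjusted p = 0.188) and r without those 2 rats 0.51. Cartpt went the other way, with r -0.53 (permutation, adjusted p = 0.0448), rho -0.66 (permutation, adjusted p = 0.0143) and r -0.54 without the 2 rats. Cck had r 0.39 (permutation, adjusted p = 0.253) and rho 0.42, and Pdyn had r 0.07 (permutation, adjusted p = 0.768) and rho -0.12. The remaining 5 members had r between -0.40 (Tac1) and 0.48 (Crh) and did not pass the test.

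With the mean of the list as a covariate, a fit chosen after seeing the data, the LFC of Tac3 in aged DH was -0.21 rather than -1.49. In the same fit it was -0.27 for Adcyap1, -0.42 for Cck, 0.54 for Pdyn and 1.24 for Crh. None of the members was called there, and only 18 of all genes were. The list itself differed between the groups, and the reason for the lost calls was not tested. How much of the fall of Tac3 came with the content of such neurons in the punch and how much with DH cannot be told apart in aged rats. In ageing, the same covariate lowered the LFC of Tac3 to 0.43 (limma adjusted p = 0.0417).

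**Figure D4:**
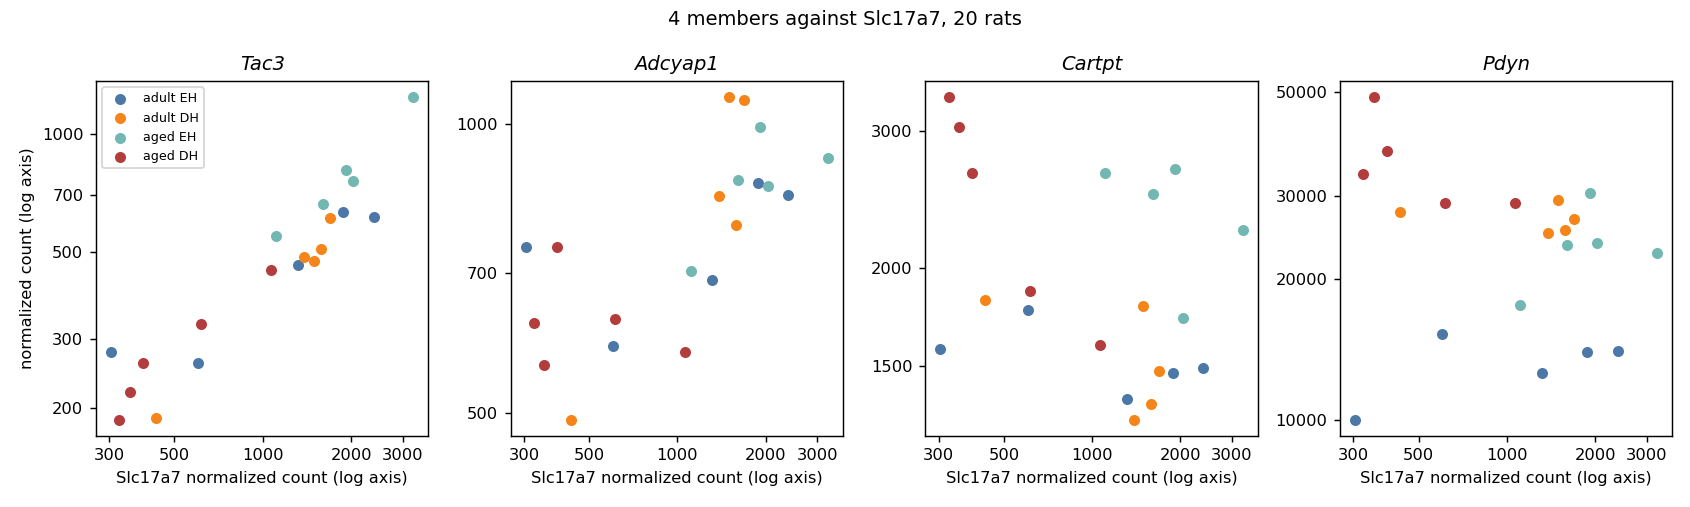
Normalized counts of Tac3, Adcyap1, Cartpt and Pdyn (vertical, log axes) against Slc17a7 (horizontal, log axes) in the 20 rats, coloured by group, with values as scaled in the DH comparison of that age. Tac3, from 186 to 1244, tends to be higher where Slc17a7 is higher (r 0.94 of the deviations from group means), and Pdyn does not (r 0.08).

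Between rats of a group the members varied more than a typical gene. The residual SD on the log2 scale was above the median of all genes for 10 of 10 members in ageing and adult DH and for 9 of 10 in aged DH, where Penk was the exception. In adult DH it ran from 0.14 (Penk) to 0.64 (Tac3), against a median of 0.11.

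For the called members other than Crh, the genes with the most similar deviations over the 20 rats were sought among 14128 genes with a symbol, as a description. For Pdyn they were Pam (r 0.90, rho 0.81), the enzyme that amidates peptides, Ssr4 (r 0.90, rho 0.79) and Pld3 (r 0.90, rho 0.83). For Tac3 they were Synpr (r 0.95, rho 0.93), Neurod2 (r 0.95, rho 0.97) and Rasgrp1 (r 0.94, rho 0.95). Those of Adcyap1 were Tmed4 (r 0.90), Syt5 (r 0.87) and Neurod1 (r 0.83), and Neurod1 and Neurod2 belong to the cortical and amygdalar list. Those of Cck were Dlg3 (r 0.85), LOC361646 (r 0.85) and Numb (r 0.83), and those of Cartpt were Pycr3 (r 0.80), Sesn2 (r 0.75) and LOC102549726 (r 0.74).

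The peptides act through G protein-coupled receptors, and 15 of the 18 receptor genes listed for them could be tested. Cckbr, the cholecystokinin receptor that also binds gastrin, was the one called, higher in DH at both ages. It had 727 ± 92.6 normalized counts in adult DH and 254 ± 36.9 in adult EH (SD, n = 5; LFC 1.52, limma adjusted p = 1.38e-06). In aged rats it had 596 ± 68.3 in DH and 342 ± 43.5 in EH (SD, n = 5; LFC 0.80, limma adjusted p = 3.38e-04), and the groups did not overlap at either age. The aged response less the adult response was -0.72 (limma adjusted p = 0.188). No receptor was called in ageing, where the highest LFC was that of Cckbr, 0.37 (limma adjusted p = 0.0664), and the lowest that of Vipr2, -0.28 (limma adjusted p = 0.197).

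Among the family relatives of the members, 9 of 13 were tested in ageing and in adult DH and 10 in aged DH. Ucn and Ucn2 encode urocortins, peptides of the same family as the Crh peptide. Ucn was called higher in aged EH (LFC 2.91, the largest of the list) and in adult DH (1.18; limma adjusted p = 0.0493), and Ucn2 in DH at both ages. Ucn2 was sparse, with 6.42 ± 3.45 normalized counts in adult EH and 22.9 ± 7.27 in adult DH (SD, n = 5). In adult rats it therefore reached the minimum mean of 10 only through the DH rats. The median LFC of the relatives was -0.08 in ageing, 0.07 in adult DH and 0.26 in aged DH.

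Of 13 genes for the enzymes and chaperones that cut, trim and amidate peptide precursors, 4 were called in ageing, 6 of 12 tested in adult DH and 4 of 13 in aged DH, all higher. Pcsk2, Pam and Scg3 were called in each comparison. Pam, which amidates peptides such as oxytocin and vasopressin, had LFCs of 0.27 in ageing, 0.63 in adult DH and 0.39 in aged DH. Pcsk1, a prohormone convertase, had 0.48 in ageing and 0.76 in adult DH and was not called in aged DH. The median LFCs of the list were 0.05, 0.17 and 0.11.

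Of the other neuropeptide precursors, 3 of 21 tested were called higher and 1 lower in ageing, 6 of 21 higher and 2 lower in adult DH, and 6 of 22 higher and 0 lower in aged DH. Over all genes 2.69% were called higher and 3.3% lower in ageing, 7.67% and 4.99% in adult DH, and 4.05% and 3.25% in aged DH, which is also the background for the receptor, relative and processing lists. Vgf and Scg2, granin family members of dense-core vesicles, were called higher in each comparison. Vgf had LFCs of 0.43, 1.76 and 1.02 in ageing, adult DH and aged DH, and Scg2 had 0.21, 0.96 and 0.62. Nmb, the neuromedin B precursor, was higher in aged EH (1.31) and in adult DH (0.85), and Npff, the precursor of neuropeptide FF, was lower in both (adult DH LFC -0.81). Prok2 rose with DH at both ages, by 2.17 and 1.76. The median LFCs were 0.10, 0.11 and 0.21. For the difference between the ages limma called 0 of 15326 genes, so none of these 4 lists could hold a called gene.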

How the data were processed

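Poly(A) RNA-seq of SON punches from 20 male Wistar Han rats was analysed. According to the study's methods and the submitters' processing notes, reads were checked with FastQC, aligned with STAR to Rn6 and counted with featureCounts (versions not stated). The deposited signal is each library's count divided by its DESeq2 size factor, in 3 tables scaled separately. The authors' fold changes, their standard errors and p-values in the deposited tables were not used. Whole reads were recovered here in all 30 columns (99.9% to 100% of values above 0 were whole within 0.01 read), and the 10 columns shared by tables gave identical reads.

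Log2 of the normalized count plus 1 was tested with limma 3.58.1 (R 4.3.3) with a mean-dependent prior for genes averaging 10 or more in the libraries compared. Two-sided p-values were adjusted over all genes by the Benjamini-Hochberg method, with 0.05 as the threshold and without an LFC minimum. The difference between the ages used each rat's value from the DH table of its age. edgeR 4.0.16 and DESeq2 1.42.0 were run on the recovered reads. The main limma fit, the edgeR fit and the DESeq2 fit of each comparison were tested on simulated data, and the other settings were not. Correlations used 100000 permutations within groups (scipy 1.17.1), and figures used matplotlib 3.10.9. Where a symbol of a list stands for more than 1 gene, the gene with the higher mean was taken.

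The members and lists were chosen with earlier results of these data known. Named genes are all members in every comparison, the members of a list that were called or, where none was, those with the highest and lowest LFC, and the 3 genes most similar to each called member (for Crh not reported here). Members of lists that are given as counts are not all named. Counts limit the precision of Crh most. Promoter sequences are RefSeq's, on GRCr8.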

Additional observations from a re-analysis of the deposited data

Results flagged for a closer look

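Each of the 10 members was examined for a rat standing apart in each group of 5, 40 groups in all, and about 1 in 20 groups would be flagged by chance. There were 2 such rats. Aged DH replicate 1 had 310 normalized counts of Crh, far above the other 4 aged DH rats, and its gap to the nearest of them was 0.842 of the range of the group. Aged DH replicate 5 had 3307 normalized counts of Trh, above the other 4, with a gap of 0.866 of the range.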

How the results depend on the processing

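The numbers of members called were 2 in ageing, 2 in adult DH, 5 in aged DH and 0 for the difference between the ages. In aged DH 3 were called with a minimum LFC of 0.5, 3 without the mean-dependent prior (Pdyn and Cck lost), 0 with the cortical covariate, and 3 to 6 with each rat left out. With rats left out, the numbers were 2 to 3 in ageing, 2 to 3 in adult DH and 0 for the difference. The causes were not tested. In aged DH the covariate itself differed between the groups. The labels do not say whether replicate numbers pair rats, so the main fits were unpaired. Deviations of same-numbered rats correlated at -0.0825 to 0.162. In each comparison 2 rats (of 10, 8 and 8 with a same-numbered rat) correlated best with their own number. So few rats cannot show whether the numbers carry a pairing. With the replicate block limma called Tac3 in ageing (adjusted p = 0.0152) and Penk in adult DH (-0.26, adjusted p = 0.00873) and lost Cck in aged DH (adjusted p = 0.0977), and over all genes it called 824, 987 and 653 against 921, 1934 and 1119. Over all genes 303, 304 and 218 were called with the minimum LFC, 516, 1441 and 671 without that prior, 584 and 18 with the covariate in ageing and aged DH, and 594 to 906, 1463 to 1743 and 678 to 1186 with rats left out.

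Signs turned only for members that were not called. In adult DH they turned for Tac3 (library sums -0.015, block -0.30, edgeR block -0.28), Cartpt (block 0.064, edgeR 0.010, DESeq2 0.0089, edgeR block 0.066), Adcyap1 (block -0.028, edgeR block -0.018) and Gal (covariate -0.0027, ratio to Avp -0.44). With the covariate they turned for Trh (0.072) and Tac1 (0.029) in ageing and for Trh (-0.26), Cartpt (-0.63) and Tac1 (-0.10) in aged DH. Ratios turned for Crh in ageing (-0.13) and Gal in aged DH (-0.13). The difference between the ages turned for Trh (block -0.022, edgeR -0.040, DESeq2 -0.041, edgeR block -0.053, covariate -0.27), Crh (edgeR 0.053, DESeq2 0.054, covariate 0.36), Gal (edgeR block -0.011, covariate -0.075) and Cartpt (covariate -0.28). With each rat left out, LFCs crossed 0 in ageing for Cck (-0.20 to 0.13), Crh (-0.013 to 0.31) and Trh (-0.32 to 0.0068), in adult DH for Cartpt (-0.065 to 0.063), Cck (-0.23 to 0.093), Gal (-0.087 to 0.14) and Tac3 (-0.16 to 0.30), and in aged DH for Cartpt (-0.072 to 0.19) and Gal (-0.021 to 0.17). For the difference they crossed 0 for Cartpt (-0.072 to 0.19), Crh (-0.24 to 0.10), Gal (-0.061 to 0.17), Penk (-0.020 to 0.086) and Trh (-0.19 to 0.21). With Slc17a7 alone in place of the list, Adcyap1 had r 0.55, Crh 0.60 and Tac1 -0.57 (permutation, adjusted p = 0.0517 for each). Tac3 (r 0.94) and Cartpt (r -0.57) passed the test there, and the other members did not. edgeR with the block, the covariate and the ratios were chosen after seeing the data.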
